A study of Mus musculus with 6 samples.

Results

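The Hox genes were read on 6 Affymetrix mouse arrays of ventral midbrain as a check of the position the tissue came from. Members were taken by symbol, as every gene named Hoxa, Hoxb, Hoxc or Hoxd with a number that had a probe set of its own, and where a gene had several such probe sets the brightest over all arrays was used. This gave 36 genes of the 39 Hox genes in the RefSeq gene table, read from 36 of 41345 probe sets. HoxA contributed 9 genes, HoxB 10, HoxC 9 and HoxD 8, and the other Hox genes were not analysed as members. The arrays fell into 2 groups of 3. The Bach1 knockout (Bach1 KO) arrays and the wild-type (WT) arrays both came from the ventral midbrain of male mice aged 2 months, with no treatment in either group. The labels do not describe the knockout allele or the strain, nor do they say whether each array is a separate animal, and a p-value here reflects only how far these samples scatter. The design asks which transcripts of this region differ without Bach1, which encodes a heme-binding repressor of antioxidant and iron genes.

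Hox genes encode homeodomain transcription factors that give cells along the body axis their positional identity. They lie in 4 clusters in which order along the chromosome matches order along the body, so low-numbered paralogs reach forward into the hindbrain and high-numbered ones act in the trunk, limbs and tail. The midbrain lies in front of their domain and is patterned instead by factors such as Otx2 and the engrailed genes. In these clusters lie microRNA genes too, chiefly of the miR-10 and miR-196 families. Mature sequences of both families are shown as the small RNAs of these clusters, with the seed (bases 2 to 8) in capitals. Mir10b and the Mir196a genes had probe sets of their own, Mir10a was read with Hoxb4 by a shared one, and Mir196b was not analysed here. They come from RefSeq, build GRCm38.p6, and the first pair and the last pair each share a seed.
mmu-miR-10a-5p: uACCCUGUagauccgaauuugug
mmu-miR-10b-5p: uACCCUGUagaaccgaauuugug
mmu-miR-196a-5p: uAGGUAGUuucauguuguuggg
mmu-miR-196b-5p: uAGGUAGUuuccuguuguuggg

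Before the Hox values, the samples were checked against their labels and the tissue. Bach1 itself was at 7.59, 7.68 and 7.70 on the knockout arrays, against 7.46, 7.59 and 7.57 on the wild-type arrays, so its signal was not lower where the labels say knockout, and directions here follow the labels. The part of Bach1 that this probe set reads relative to the deletion is not given in the sources used here. Hmox1, the inducible heme oxygenase and a known BACH1 target, was at 8.50, 8.22 and 8.41 on the knockout-labelled arrays, against 6.51, 6.46 and 6.32 on the wild-type arrays. The midbrain markers Slc6a3, the dopamine transporter, and Th, the first enzyme of dopamine production, averaged 11.96 and 11.23 over the arrays, at percentiles 99.1 and 98.1 of all probe sets. Values are log2 expression levels normalized by the authors. No detection call accompanies them, and probe sets differ in how strongly they bind their target, so a level set against other probe sets is a coarse description of the genes' relative abundance.

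As a family the Hox genes were dim in this tissue, where in bulk RNA fewer cells of a type and less RNA per cell cannot be told apart. Their median level was 4.86 over the 6 arrays, with a range from 3.20 to 6.16, and the median of all probe sets was 5.61. The median Hox gene stood at percentile 35.8 of all probe sets, and 3 of the 36 genes lay above the overall median. Receptors of nasal sensory neurons (olfactory and vomeronasal receptors, 1383 probe sets), which are expected to be mostly silent in brain, served as a second scale. Their median level was 3.17 and their 95th percentile 5.23. All 36 Hox genes lay above the receptors' median, and 11 lay above their 95th percentile. The Hox levels were thus low yet above the receptors' median, which without a detection call does not show that the transcripts were present. The count of 11 depends on where the line is drawn, since 20 genes lay above the receptors' 90th percentile and 0 above the 99th.

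Low Hox levels were found on every array. Read within each array, the median Hox gene stood at percentiles 37.9, 37.1 and 35.7 on knockout-labelled arrays 1, 2 and 3, against percentiles 36.8, 35.3 and 36.5 on wild-type arrays 1, 2 and 3. The groups overlapped. Between 6 and 11 Hox genes on each knockout-labelled array, and between 9 and 11 on each wild-type array, exceeded that array's own receptor 95th percentile. A Hox gene typically varied as much between arrays as any other probe set, with a median range over the 6 arrays of 0.48, against 0.47 for all probe sets.

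**Figure D1:**
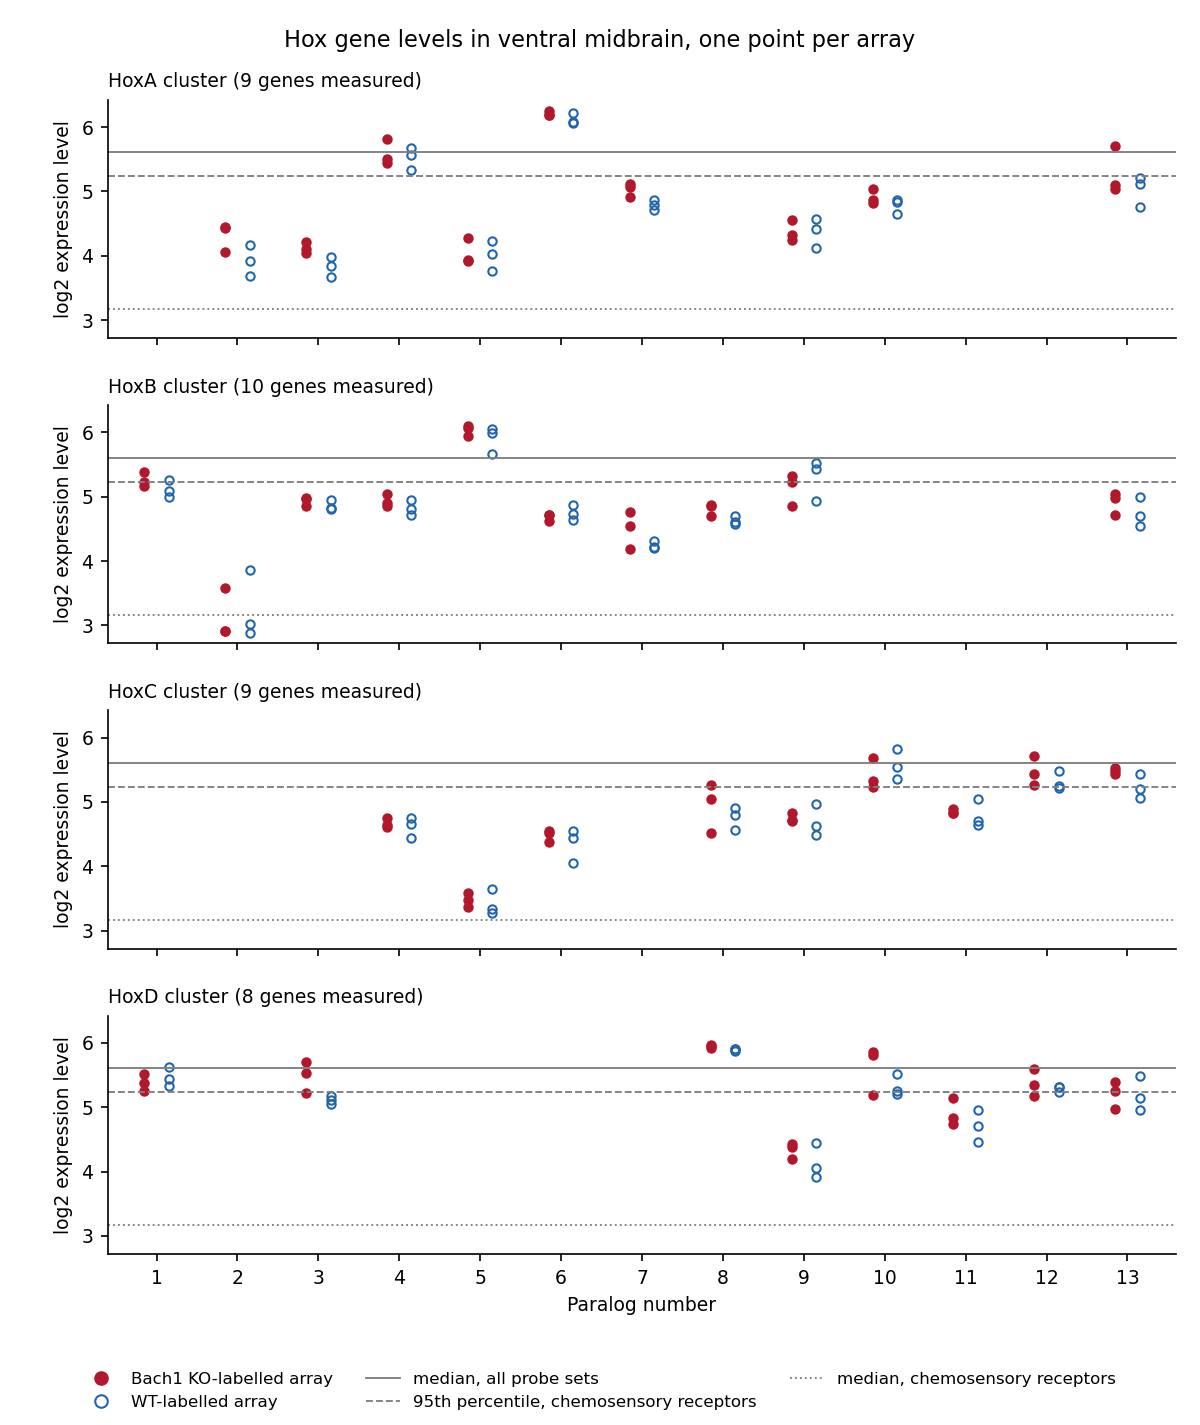
Log2 expression level (y axis) of each measured Hox gene by paralog number (x axis) in the 4 clusters, with filled points for the 3 Bach1 knockout-labelled arrays and open points for the 3 wild-type arrays. Most points lie between the receptor median of 3.17 and the overall median of 5.61, in the trunk and tail paralogs as in those of the hindbrain.

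The brightest Hox genes were Hoxa6, Hoxb5 and Hoxd8, the only members above the overall median. Hoxa6, a gene of the trunk, was at 6.19, 6.26 and 6.19 on the knockout-labelled arrays, against 6.22, 6.05 and 6.08 on the wild-type arrays, with a mean at percentile 58.4. Hoxb5, whose domain reaches the caudal hindbrain and which also acts in the enteric nervous system, was at 5.95, 6.06 and 6.10 on the knockout-labelled arrays, against 5.99, 5.66 and 6.06 on the wild-type arrays. The groups overlapped for both genes. Hoxd8, expressed in the trunk, was at 5.97, 5.95 and 5.91 on the knockout-labelled arrays, against 5.87, 5.91 and 5.90 on the wild-type arrays. The lowest knockout-labelled value and the highest wild-type value of Hoxd8 differed only in the third decimal. Hoxb5 was the single member with a further probe set of its own, which averaged 5.72 against 5.97 for the one used, at percentiles 51.8 and 55.7.

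Next in level came Hoxa4, Hoxc10, Hoxd10, Hoxd1 and Hoxc12, with means of 5.55, 5.49, 5.48, 5.42 and 5.40. Hoxc10 and Hoxd10 pattern the lumbar spinal cord and hindlimb motor neurons, and Hoxd1 takes part in the wiring of pain-sensing neurons. Hoxd10 was at 5.82, 5.86 and 5.20 on the knockout-labelled arrays, against 5.25, 5.52 and 5.21 on the wild-type arrays. Knockout-labelled arrays 1 and 2 were thus the highest of the 6 while array 3 was the lowest. Hoxc10 was at 5.23, 5.68 and 5.32 on the knockout-labelled arrays, against 5.54, 5.83 and 5.36 on the wild-type arrays, and the groups overlapped. Hoxc13, Hoxd12 and Hoxd3 completed the 11 genes above the receptors' 95th percentile, at 5.36, 5.33 and 5.30. Just below it lay Hoxb9 at 5.22, Hoxd13 at 5.20 and Hoxb1 at 5.19.

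At the lower end stood genes of the hindbrain and neck. Hoxb2, a hindbrain gene that acts in facial motor neuron development, was at 2.92, 3.58 and 2.92 on the knockout-labelled arrays, against 3.02, 3.86 and 2.89 on the wild-type arrays. Array 2 was the highest in each group, and the mean of 3.20 was close to the median of the nasal receptors. Hoxc5, which acts in the neck region of the spinal cord, was at 3.58, 3.47 and 3.37 on the knockout-labelled arrays, against 3.33, 3.28 and 3.65 on the wild-type arrays, with overlapping groups. Hoxa3, needed for thymus and parathyroid formation, averaged 3.98. Hoxa5, which is needed for lung and airway development and is expressed in the caudal hindbrain, averaged 4.03. It was at 3.92, 4.28 and 3.93 on the knockout-labelled arrays, against 4.24, 4.03 and 3.76 on the wild-type arrays, so the groups were mixed. Hoxa2, the Hox gene whose domain reaches farthest forward, averaged 4.12 at percentile 23.0.

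The clusters were also read by paralog group. The 13 measured genes of paralogs 1 to 5, whose domains include parts of the hindbrain, had a median level of 4.88, and the 23 genes of paralogs 6 to 13 had one of 4.85. The difference of the medians was 0.03, and it changed sign when knockout-labelled array 1 or wild-type array 1 was left out (-0.067 and -0.040). The classes are read by different probe sets, whose levels had SDs over members of 0.85 and 0.49, so this difference was not tested and shows nothing about an order of the paralogs. Of the hindbrain class 4 of 13 genes, and of the trunk and tail class 7 of 23, lay above the receptors' 95th percentile. By paralog group the dimmest was group 2 (Hoxa2 and Hoxb2), with a median of 3.66, and among the brightest was group 12 (Hoxc12 and Hoxd12), with 5.36, beside group 10, with 5.48. The hindbrain genes Hoxb1, Hoxb3 and Hoxb4 were at 5.19, 4.90 and 4.88, and the tail and limb genes Hoxa13, Hoxb13, Hoxc13 and Hoxd13 at 5.15, 4.83, 5.36 and 5.20. Of these 7 genes, Hoxc13 alone lay above the receptors' 95th percentile.

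The clusters differed modestly. HoxD genes had a median level of 5.31 and HoxA, HoxB and HoxC genes medians of 4.85, 4.85 and 4.82. Above the receptors' 95th percentile lay 5 of 8 HoxD, 2 of 9 HoxA, 1 of 10 HoxB and 3 of 9 HoxC genes. Members of a cluster are not replicates and their probe sets differ, so these medians were not tested. HoxD genes ran from Hoxd9 at 4.24 to Hoxd8 at 5.92. HoxA held the brightest member, Hoxa6, and 3 of the 5 dimmest, Hoxa2, Hoxa3 and Hoxa5.

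Noncoding RNAs of the clusters were as dim as their coding neighbours. Of the 17 on the list 7 had a probe set of their own, with a median level of 4.89, and 0 lay above the median of all probe sets. Mir196a-1 of HoxB and Mir196a-2 of HoxC, whose 5p arm is the same mature miR-196a sequence printed above, averaged 5.36 and 4.02. The probe sequences of both were not used here. Mir10b of HoxD averaged 2.22, at percentile 4.05, among the dimmest probe sets of the array. Hoxd3os1, an antisense RNA of HoxD, averaged 5.33, Hoxaas3 of HoxA 5.17, Mir615 of HoxC 4.89 and Hotair, a noncoding RNA of HoxC, 4.68.

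A further 7 probe sets name a Hox gene together with another gene and were left out of the members. The brightest carried Hoxa3 with the transcript 5730446D14Rik, and it was at 6.41, 6.42 and 6.27 on the knockout-labelled arrays, against 6.38, 6.33 and 6.48 on the wild-type arrays. Its mean was 6.38, at percentile 61.2, and that of the Hoxa3 probe set was 3.98. Which of its genes gave the signal cannot be read from the array. The probe set shared by Hoxd4 and Hoxd3 averaged 5.51, those of Hoxa11 and Hoxa11os 4.65 and 5.16, the set of Hoxb3 and Hoxb2 5.22, and that of Mir10a and Hoxb4 1.95.

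Homeobox genes outside the clusters and position markers put these levels in context. The ParaHox, Cdx and Evx genes, relatives of the Hox genes that act in gut, tail and early neural development, had a median level of 5.43 over 8 genes, and 7 of these exceeded the receptors' 95th percentile. Gsx2, Gsx1 and Evx2 led them at 5.92, 5.90 and 5.80. The others, Evx1, Cdx2, Pdx1, Cdx1 and Cdx4, averaged 5.46, 5.40, 5.34, 5.29 and 4.77. Midbrain markers had a median of 6.97 over 18 genes, and 18 of 18 lay above both the receptors' 95th percentile and the overall median. Among them Otx2, which sets the rear border of the midbrain, averaged 7.02, and the engrailed genes En1 and En2, which maintain midbrain identity and dopamine neurons, 6.95 and 6.36. Nr4a2, a regulator of dopamine neurons, averaged 8.70. Forebrain markers had a median of 6.73 over 14 genes, with Dlx2, Dlx5 and Lhx2 at 7.79, 7.61 and 7.56. No Hox gene reached the median of either list.

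**Figure D2:**
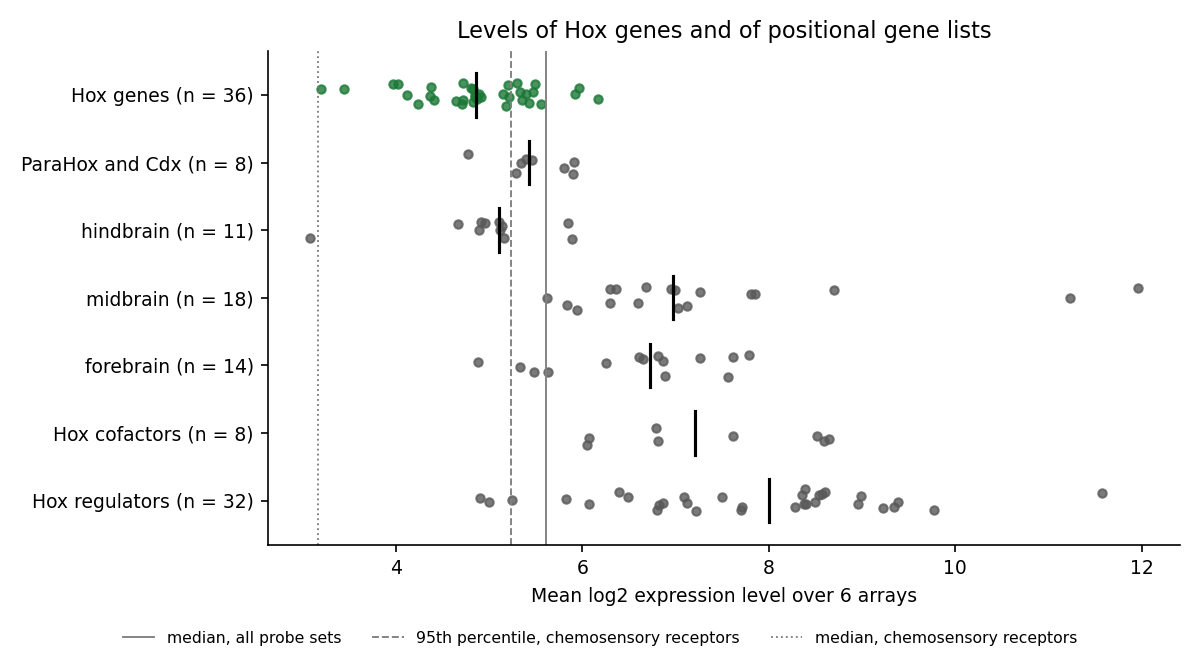
Mean log2 expression level over the 6 arrays (x axis) of each gene in the Hox family and in 6 comparison lists (rows), with a black bar at each list's median. The 36 Hox genes and the 11 hindbrain markers, with medians of 4.86 and 5.11, sit left of the midbrain markers, with a median of 6.97, and of the Hox cofactors, with a median of 7.21.

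Partners and regulators of Hox proteins had median levels well above that of the Hox genes, though some members lay in the Hox range. HOX proteins bind DNA together with PBX, MEIS and PKNOX proteins, and the 8 measured genes of these families had a median level of 7.21. Pknox2, Meis2 and Pbx3 led at 8.64, 8.60 and 8.52. Genes that set Hox expression, namely retinoid enzymes and receptors and the Polycomb and Trithorax chromatin factors, listed with the zinc-finger gene Zic1, stood at a median percentile of 79.1 over 32 genes. Aldh1a1, a retinoic acid producing enzyme that also marks ventral dopamine neurons, was first at 11.58, followed by Zic1 at 9.77 and the Polycomb gene Cbx7 at 9.39. The Polycomb subunit genes Ezh1, Ezh2, Eed and Suz12, which keep Hox clusters silent, averaged 9.35, 7.72, 7.22 and 8.28. Cyp26a1 and Cyp26c1, which degrade retinoic acid, were at percentiles 38.5 and 36.8, in the range of the Hox genes. Aldh1a3, Cbx8 and Bmi1 among the regulators, at 5.25, 5.82 and 6.07, lay in that range too. So did Pknox1 and Pbx4 among the partners, at 6.05 and 6.07.

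Hindbrain markers were also dim. No hindbrain sample was measured beside them, so the level they would have in that tissue is not known here. Of 14 hindbrain markers 11 were measured, with a median level of 5.11, and 2 exceeded the receptors' 95th percentile. These were Slc6a5, the glycine transporter of inhibitory hindbrain neurons, at 5.89, and Barhl1, a factor of the rhombic lip that is also found in the subthalamic region, at 5.84. Gabra6, a receptor subunit of cerebellar granule cells, averaged 3.08, close to the receptor median. Dbh and Slc6a2, which mark noradrenaline neurons, averaged 5.11 and 4.67.

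The groups did not overlap for 3 of the 11 hindbrain markers, all higher on the knockout-labelled arrays. Among all probe sets 14.3% had no overlap, 7.4% with the knockout-labelled arrays higher and 6.86% with them lower. Slc6a4, the serotonin transporter, was at 5.27, 4.90 and 5.36 on the knockout-labelled arrays, against 4.64, 4.66 and 4.50 on the wild-type arrays. Tph2, the serotonin-making enzyme of raphe neurons, was at 4.96, 4.96 and 5.30 on the knockout-labelled arrays, against 4.72, 4.78 and 4.74 on the wild-type arrays. Tlx3, a factor of hindbrain and spinal sensory neurons, was at 5.31, 5.46 and 5.24 on the knockout-labelled arrays, against 4.87, 4.79 and 5.13 on the wild-type arrays. None of the 3 passed limma over all probe sets (adjusted p = 0.512, 0.566 and 0.535), and raphe neurons lie partly within the midbrain itself. The list's score, the mean log2 level of its genes minus their wild-type mean, was 0.19, 0.17 and 0.19 on knockout-labelled arrays 1, 2 and 3, against 0.019, -0.036 and 0.017 on wild-type arrays 1, 2 and 3. The knockout-labelled mean was higher for 9 of the 11 markers, with a median log2 fold change of 0.15. Renewed quantile normalization gave 8, with a median of 0.10, and arrays shifted to the same median 8, with 0.099. Among probe sets in the range of Hox levels, which holds all but Gabra6, 61.1% were higher in the values as deposited, with a median of 0.059. In that range 10.6% separated with the knockout-labelled arrays higher.

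Hox genes were compared between the groups with limma across all 41345 probe sets. The test called 0 of the 36 Hox genes at an adjusted p under 0.05, and it called 0.00726% of all probe sets. At an unadjusted p under 0.05 it gave 3 Hox genes, or 8.33%, where 8.27% of all probe sets did so, 4.97% higher and 3.3% lower. All 3 Hox genes were higher on the knockout-labelled arrays. The count of 3 became 0 after renewed quantile normalization and 1 after shifting the arrays to the same median. The knockout-labelled mean was the higher for 31 of the 36 genes and the lower for 5, with a median log2 fold change of 0.12. Over all probe sets 50.1% had the higher mean under the knockout label, and their median was 0.0005. Probe sets between the dimmest and the brightest Hox gene leaned the same way as the family, with 61.1% higher and a median of 0.059. The median over all probe sets was 5.648, 5.687 and 5.621 on the knockout-labelled arrays, against 5.615, 5.583 and 5.618 on the wild-type arrays. The SD over all probe sets was 2.379, 2.359 and 2.369, against 2.391, 2.395 and 2.387. With renewed quantile normalization 25 of 36 Hox genes were higher, with a median of 0.063, and with equal medians 28 were higher, with a median of 0.070. Over all probe sets the median log2 fold change was then 0.00071 and -0.047. The share and median in the range of Hox levels were not computed under these scalings, so 0.059 is no background for 0.063 and 0.070.

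**Figure D3:**
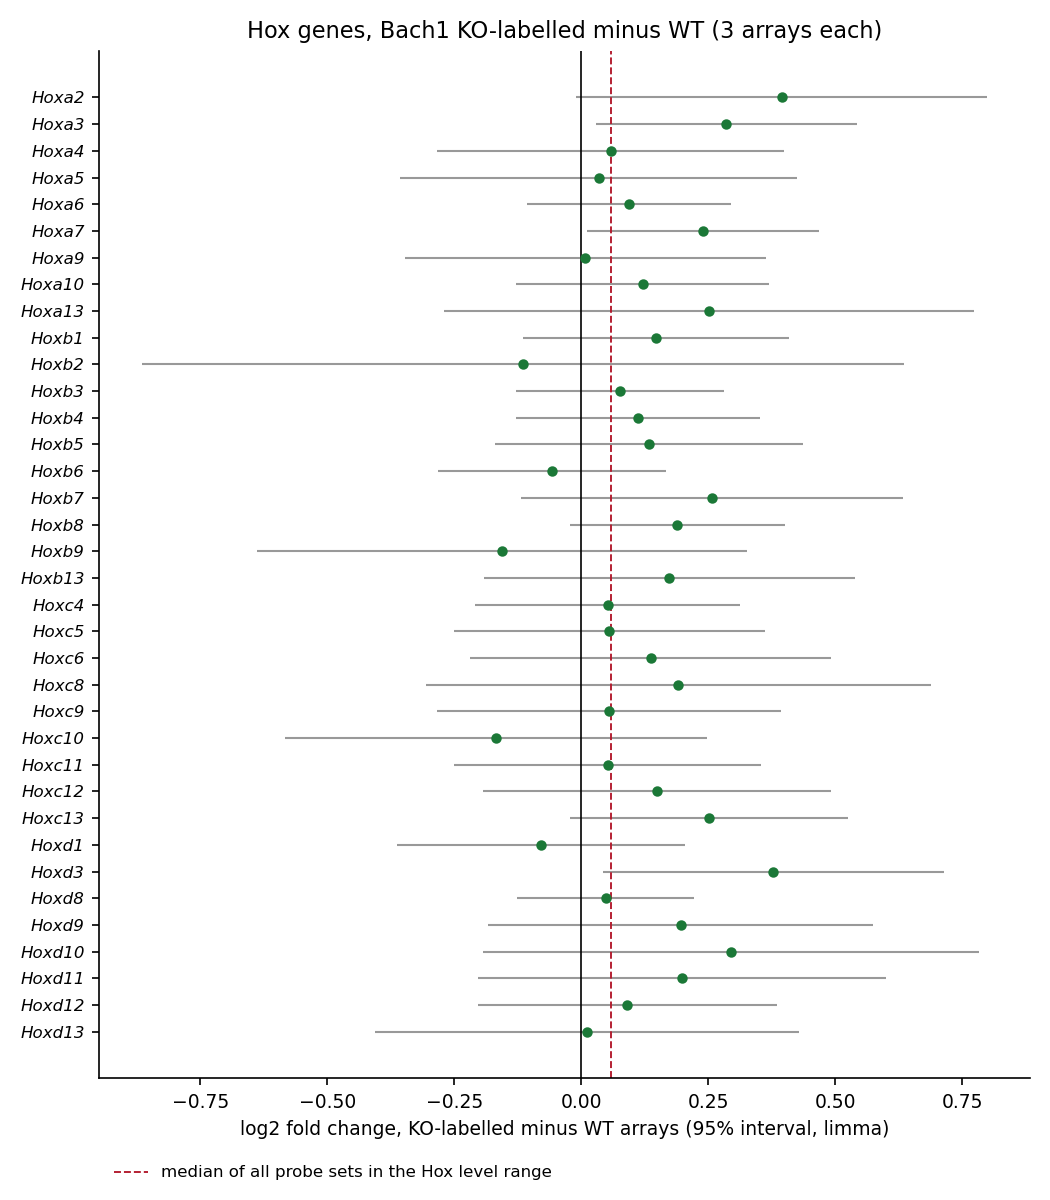
Log2 fold change, Bach1 knockout-labelled minus wild-type arrays (x axis), of the 36 Hox genes (rows), with 95% intervals from limma on 3 arrays per group. A solid line marks 0 and a dashed line the median of 0.059 of all probe sets in the same range of levels. Most points lie right of 0, and 3 of the 36 intervals exclude 0.

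Hoxd3, which acts in the formation of the first neck vertebrae, had the smallest p-value. It was at 5.71, 5.53 and 5.22 on the knockout-labelled arrays, against 5.04, 5.11 and 5.17 on the wild-type arrays. The groups did not overlap, and knockout-labelled array 3 was the nearest to the wild-type arrays. Its log2 fold change of 0.38 (95% interval 0.043 to 0.71) missed the threshold (limma, adjusted p = 0.574). The probe set shared by Hoxd4 and Hoxd3 had a log2 fold change of 0.08, with overlapping groups.

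Hoxa3 and Hoxa7 followed, at the level of the dimmest and of the middle members. Hoxa3 was at 4.21, 4.04 and 4.11 on the knockout-labelled arrays, against 3.85, 3.68 and 3.98 on the wild-type arrays, without overlap. Its log2 fold change was 0.29 (SE 0.11, limma, adjusted p = 0.577), while the probe set it shares with 5730446D14Rik had one of -0.03. Hoxa7, a trunk gene, was at 4.92, 5.12 and 5.06 on the knockout-labelled arrays, against 4.79, 4.71 and 4.87 on the wild-type arrays, again without overlap. Its log2 fold change was 0.24 (SE 0.094, limma, adjusted p = 0.588). The probe set that Hoxa7 shares with Mira was at 0.16, with overlapping groups.

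Hoxa2 had the largest log2 fold change of the 36 genes in this comparison, 0.40 (95% interval -0.010 to 0.80, limma, adjusted p = 0.612). It was at 4.44, 4.06 and 4.44 on the knockout-labelled arrays, against 3.92, 4.17 and 3.68 on the wild-type arrays. Knockout-labelled array 2 lay below wild-type array 2, so the groups overlapped. Hoxc13, a regulator of hair and nail keratins, was at 5.48, 5.44 and 5.53 on the knockout-labelled arrays, against 5.43, 5.20 and 5.06 on the wild-type arrays, separating by the distance between 5.44 and 5.43. Its log2 fold change was 0.25 (limma, adjusted p = 0.616). Hoxb8, known for a microglial lineage and for excessive grooming in mutant mice, was at 4.86, 4.87 and 4.70 on the knockout-labelled arrays, against 4.57, 4.60 and 4.69 on the wild-type arrays. Its log2 fold change was 0.19 (limma, adjusted p = 0.625), and knockout-labelled array 3 lay only just above wild-type array 3.

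In all, 6 Hox genes separated with the knockout-labelled arrays higher and 0 with them lower, 16.7% of the family in either direction, where 14.3% of all probe sets did so. In the higher direction alone the share was 7.4% over all probe sets and 10.6% among probe sets in the same range of levels. The sixth gene was Hoxd8, whose groups differed by 0.05 on the log2 scale. On the other side, Hoxc10, Hoxb9, Hoxb2, Hoxd1 and Hoxb6 had lower knockout-labelled means, with log2 fold changes of -0.17, -0.16, -0.11, -0.079 and -0.058, and all had overlapping groups. For Hoxd8 and Hoxa6 the intervals were narrow, from -0.13 to 0.22 and from -0.11 to 0.30, whereas that of the dim gene Hoxb2 ran from -0.87 to 0.64.

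The lean toward higher values was not confined to hindbrain paralogs. Genes of paralogs 1 to 5 were higher in 11 of 13 cases, with a median log2 fold change of 0.077, and genes of paralogs 6 to 13 in 20 of 23, with a median of 0.14. By cluster, 9 of 9 HoxA, 7 of 10 HoxB, 8 of 9 HoxC and 7 of 8 HoxD genes were higher, with medians of 0.12, 0.12, 0.056 and 0.14. With renewed quantile normalization 9 of 13 and 16 of 23 genes of the paralog classes were higher, with medians of 0.025 and 0.079. With equal medians 10 of 13 and 18 of 23 were higher, with medians of 0.030 and 0.090. By cluster, renewed quantile normalization gave 7 of 9 HoxA, 7 of 10 HoxB, 5 of 9 HoxC and 6 of 8 HoxD genes higher, with medians of 0.079, 0.066, 0.025 and 0.081. Equal medians gave 7 of 9, 7 of 10, 8 of 9 and 6 of 8, with medians of 0.074, 0.076, 0.0087 and 0.096. The Hox score was 0.15, 0.15 and 0.047 on knockout-labelled arrays 1, 2 and 3, against 0.029, -0.016 and -0.013 on wild-type arrays 1, 2 and 3. HoxD genes scored 0.27 and 0.17 on knockout-labelled arrays 1 and 2 but -0.015 on array 3. The ParaHox, Cdx and Evx genes, dim homeobox genes outside the clusters, were higher in 6 of 8 cases with a median of 0.16. Their score of 0.15, 0.22 and 0.063 was likewise lowest on knockout-labelled array 3, and the wild-type scores were 0.097, -0.0019 and -0.095.

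**Figure D4:**
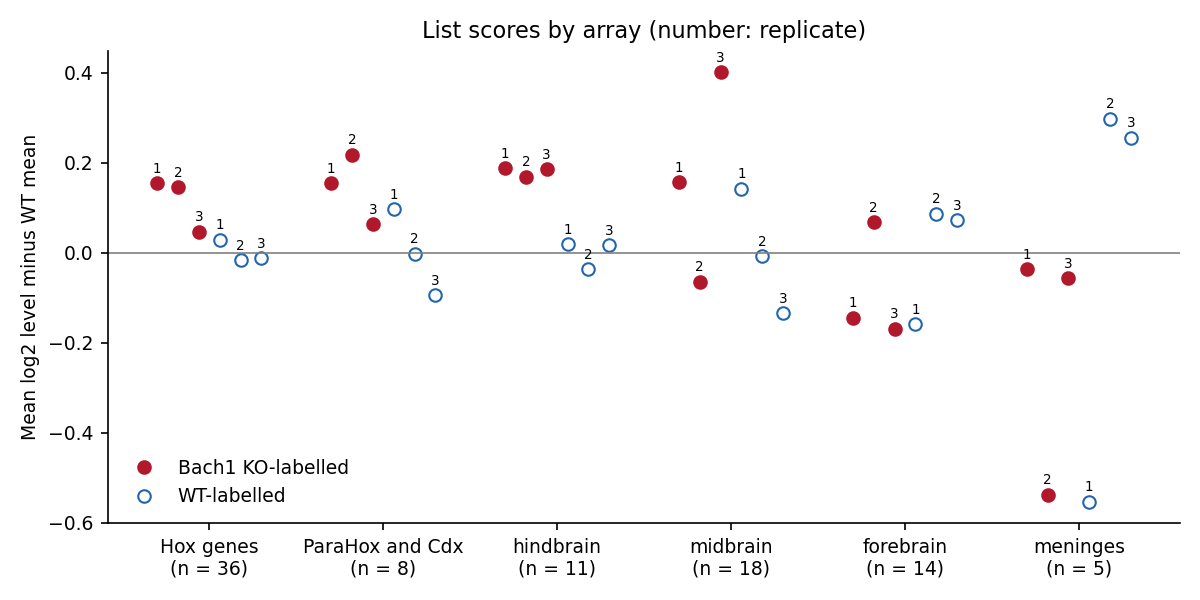
Score of each list (x axis) on each array, the mean log2 level of its genes minus their wild-type mean (y axis), with filled points for Bach1 knockout-labelled and open points for wild-type arrays and the replicate number at each point. Hox scores lie between 0.047 and 0.15 on knockout-labelled arrays, against -0.016 to 0.029 on wild-type arrays, a smaller span than that of the meningeal list.

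Midbrain markers leaned the same way as the Hox genes, with 15 of 18 higher on the knockout-labelled arrays and a median log2 fold change of 0.19. Most of these markers lie in level deciles 7 and 8 of all probe sets. There 42.2% and 34.3% of probe sets were higher in the values as deposited, with medians of -0.030 and -0.044, against 61.1% in the range of Hox levels. The count was 15 of 18 under both other scalings, with medians of 0.22 after renewed quantile normalization and 0.15 with equal medians. At an unadjusted p under 0.05 limma gave 0 of the 18, where 8.27% of all probe sets did so. For 0 of the 18 the groups did not overlap, where 14.3% of all probe sets had no overlap. With 18 markers, a difference from these shares was not tested. The midbrain score was 0.16, -0.065 and 0.40 on knockout-labelled arrays 1, 2 and 3, against 0.14, -0.0073 and -0.13 on wild-type arrays 1, 2 and 3, and the forebrain score -0.14, 0.068 and -0.17 against -0.16, 0.087 and 0.072. Meningeal markers stood apart on knockout-labelled array 2, at -0.54, and on wild-type array 1, at -0.55, and the other arrays ran from -0.057 to 0.30. The Hox median log2 fold change was 0.10 without the first of these arrays and 0.15 without the second. Without wild-type array 2 it was 0.074, against 0.12 over all arrays. Their part in the Hox values was not tested. Spinal cord markers were lower on the knockout-labelled arrays in 4 of 4 cases, where 50.1% of all probe sets were higher. Isl1, which forebrain neurons express too, was at 7.06, 6.91 and 6.15 against 7.07, 7.21 and 7.56 on the wild-type arrays. As a list these markers were not as dim as the Hox genes, with a median level of 5.95. Isl1 and Prrxl1 averaged 6.99 and 6.78, and Chodl and Mnx1 5.12 and 3.61.

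Limma called 0 of 32 regulators and 0 of 8 cofactors, where it called 0.00726% of all probe sets. At an unadjusted p under 0.05 it gave 2 and 0, where 8.27% of all probe sets did so. The groups did not overlap for 9 of the 32 regulators, 2 with the knockout-labelled arrays higher and 7 with them lower, where 7.4% and 6.86% of all probe sets did so. Those lower were Rarb, the retinoid receptor gene Rxrb, the Polycomb genes Rnf2, Ring1 and Cbx7, the Trithorax gene Kmt2b and the demethylase gene Kdm6b. Between 9.31% and 10.98% of probe sets separated with the knockout-labelled arrays lower in each of level deciles 7 to 10, where these 7 genes lie. Of the cofactors 0 separated. Rarb, a retinoic acid receptor, was at 6.79, 6.65 and 6.37 on the knockout-labelled arrays, against 7.04, 7.01 and 6.93 on the wild-type arrays, a log2 fold change of -0.39 (limma, adjusted p = 0.543). Aldh1a1 had one of 0.26 (limma, adjusted p = 0.564), with all knockout-labelled values higher. Of the noncoding RNAs, Mir196a-2 was at 3.86, 3.33 and 4.01 on the knockout-labelled arrays, against 4.35, 3.98 and 4.59 on the wild-type arrays, with overlapping groups (limma, adjusted p = 0.594). Mir615 was at 5.10, 4.97 and 4.95 against 4.87, 4.65 and 4.79 on the wild-type arrays, without overlap (limma, adjusted p = 0.597).

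Promoters of the Hox genes were searched for the core that BACH1 and NRF2 complexes recognise, TGACNNNGC, on both strands of the 250 bases before and 50 after each start. RefSeq promoters (GRCm38.p6) were matched for 20 of the 36 genes, in 22 windows. The core was found in 2 of the 22, or 9.09%, against 12.4% of all 32851 promoters. The related AP-1 site TGAGTCA, which shares its TGA with that core, was found in 1 Hox window, of Hoxd11, or 4.55%, against 5.20% of all. Hox windows were richer in CG dinucleotides, with a median of 17 against 7 in all promoters. Both windows with the core are shown, 5′ to 3′ along the gene, because they belong to members among the brightest, Hoxa6 and Hoxd10. Capitals mark the match, which lies on the opposite strand in both and begins 91 bases before the start of Hoxa6 and at base 37 of Hoxd10.
Hoxa6, chr6:52208623-52208922, minus strand: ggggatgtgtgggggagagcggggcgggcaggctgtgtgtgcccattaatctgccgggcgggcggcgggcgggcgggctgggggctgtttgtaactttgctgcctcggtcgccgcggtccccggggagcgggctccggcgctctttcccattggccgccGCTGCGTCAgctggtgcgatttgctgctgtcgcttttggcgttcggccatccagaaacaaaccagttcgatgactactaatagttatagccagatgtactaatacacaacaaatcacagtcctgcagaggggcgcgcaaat
Hoxd10, chr2:74691641-74691940, plus strand: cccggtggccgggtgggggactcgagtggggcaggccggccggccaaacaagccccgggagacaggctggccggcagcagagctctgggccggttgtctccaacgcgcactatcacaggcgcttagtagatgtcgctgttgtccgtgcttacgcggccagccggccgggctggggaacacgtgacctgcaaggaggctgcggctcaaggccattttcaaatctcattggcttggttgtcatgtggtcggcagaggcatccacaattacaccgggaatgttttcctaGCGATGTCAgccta

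Hoxa6 and Hoxd10 had log2 fold changes of 0.095 and 0.29 (limma, adjusted p = 0.785 and 0.727), with overlapping groups. Hoxd3, Hoxa3 and Hoxa7, the members with the smallest p-values, had no match in their windows.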

How the data were processed

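RNA of ventral midbrain was hybridised to Affymetrix arrays. The deposited log2 values per probe set were made by the authors with RMA, which corrects background, normalizes between arrays and summarises probes, per the submitters' processing notes (software version and annotation not given in the sources used here). RMA removes shifts common to most genes and compresses differences of dim probe sets. The log2 scale was read from the values, 0.745 to 14.1, and there were 0 columns of other samples.

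The 3 Bach1 knockout and 3 wild-type arrays were grouped by their labels. Gene names came from the platform annotation, updated through Entrez identifiers to RefSeq symbols (GRCm38.p6), with 23328 of 23521 single-gene probe sets matched. Probe sets with several genes (1814) or none (16010) gave no member. The number of arrays limits the precision. limma 3.58.1 in R 4.3.3 was fitted to all probe sets (lmFit and eBayes, no trend), knockout-labelled minus wild type, with Benjamini-Hochberg adjustment over 41345 probe sets, and the procedure was tested on simulated data. Alternatives were a trended or robust prior, renewed quantile normalization, equal medians, a filter on dim probe sets, a replicate block, other probe sets per gene and each array left out.

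Members and lists were chosen with earlier results of these data known. Named genes were the 8 brightest, the 4 dimmest and the 6 with the smallest p among Hox genes, and the 3 brightest and up to 2 with the smallest p of each other list, and others named were chosen after their values were seen.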

Additional observations from a re-analysis of the deposited data

How the results depend on the processing

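In every alternative run, limma called 0 Hox genes. The count at an unadjusted p under 0.05 was 1 with a trended prior, 0 after renewed quantile normalization, 1 with equal array medians, 1 with the replicate block, and between 1 and 4 with an array left out. The Hox median log2 fold change was 0.063 and 0.070 with those normalizations, and ran from 0.074 to 0.15 with an array left out. With dim probe sets removed, 15 Hox genes were left by construction, 12 of them higher on the knockout-labelled arrays. Their median percentile was 10.4 of the probe sets kept, and 0 exceeded the 95th percentile of the receptors kept. Both values are shaped by the filter, which removes the dim receptors too, so the 0 does not test the count made against all receptors. Against the receptors' 90th and 99th percentile, lines chosen after seeing the data, 20 and 0 Hox genes were above. The hindbrain median ran from 0.087 to 0.22 with an array left out. Over all probe sets, 3 calls became 0 with the replicate block and 0 with any array left out. Deviations of same-numbered arrays from their group means correlated at 0.086, -0.033 and 0.039. With 3 arrays per group these deviations are tied to one another, so they cannot show whether the numbers pair the arrays. No Hox gene was called with or without the block.

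Of 231 alternative values for 17 named Hox genes, 222 kept their direction and side of the threshold, and the smallest adjusted p in limma was 0.447. Many of the 222 were fixed in advance. The priors, the replicate block and the dim filter cannot change a log2 fold change, and other probe sets change only that of Hoxb5. Only the renewed scalings and the runs without an array could turn the sign of the other genes, so the 222 overstates stability. In 9 the sign turned, among them Hoxb2, at 0.19 without wild-type replicate 2 against -0.11 over all arrays, and the cause was not tested. Hoxa5 became -0.022 with quantile normalization and -0.013 with equal medians. With an array left out, Hoxa4 ran from -0.055 to 0.13, Hoxa5 from -0.089 to 0.15, Hoxb2 from -0.34 to 0.19, Hoxc5 from -0.015 to 0.17 and Hoxd1 from -0.15 to 0.0031. Levels of dim probe sets limit what a difference this size can show.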
